A study of Mus musculus with 11 samples.

Results

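The 10 genes described here carry the creatine and calcium cycles that let fat cells release heat without uncoupling protein 1 (UCP1). They were chosen by name, not by a rule on measured values, from 29955 gene symbols in the data, but with earlier results of these data known. Slc6a8, Gatm and Gamt supply creatine. Ckb, Ckm, Ckmt1 and Ckmt2 encode creatine kinases, and Atp2a1, Atp2a2 and Ryr2 encode 2 calcium pumps and a calcium release channel of the endoplasmic or sarcoplasmic reticulum.

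In the creatine cycle, mitochondrial ATP phosphorylates creatine, and phosphocreatine is then hydrolysed again, so that ATP is spent without mechanical or chemical work. Cells either import creatine or make it in successive steps from arginine and glycine. In the calcium cycle, a SERCA pump spends ATP to move calcium into the reticulum and a release channel lets it out again. Both cycles have been described in beige fat, the heat-producing cells that arise within white fat depots.

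Cells were im-scWATs, mouse inguinal preadipocytes immortalized with the large T antigen and differentiated in culture, and RNA was measured by strand-specific RNA-seq. In the time course (6 samples), differentiation was induced at day 0 with indomethacin, dexamethasone, 3-isobutyl-1-methylxanthine, insulin and triiodothyronine, with or without 0.5 μM rosiglitazone (ROS), a ligand of the nuclear receptor PPARγ. Single samples were taken with ROS and without ROS at day 4 and at day 8. At day 0, before ROS was given, 1 sample bears the plus label and 1 the minus label, and they were treated as the 2 samples of day 0. The transduced experiment (5 samples) used preadipocytes infected with retroviruses for an shRNA against mouse Jmjd1a (Kdm3a) and for human JMJD1A, a demethylase of histone H3 lysine 9, all differentiated to day 8 with ROS. JMJD1A was wild-type in 2 samples (WT A and WT B), S265A (the serine that PKA phosphorylates replaced), S265D (a phosphate-mimicking residue in its place) or S265D-H1120Y (in addition lacking demethylase activity), with 1 sample each. The labels have ROS withdrawn for the last day before day 8, whereas the study's methods describe ROS up to day 8. All samples come from 1 immortalized cell source, and no label says whether the 2 day 0 or the 2 WT samples are separate cultures, so p-values measure only the spread between those samples, which may be technical.

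Mapped bases per sample ranged from 3.10 to 5.29 Gb. The deposited unit was FPKM, fragments per kilobase of exon scaled to the mapped fragments of each sample, which allows levels to be compared between genes. The 8 adipocyte markers (Adipoq, Fabp4, Pparg, Plin1, Cidec, Lipe, Lpl and Retn) summed to 284 and 286 FPKM at day 0 and to 10295 to 36644 FPKM in the other time course samples. All 8 were at 1 FPKM or more in every differentiated sample. Skeletal muscle markers, which matter because several of the 10 genes are muscle genes, summed to 1.31 to 32.2 FPKM. Myod1, Myf5 and Myog, the muscle-determining factors, were listed at 0 in all 11 samples, and 0 to 2 of the 11 muscle markers reached an FPKM of 1. WT A and WT B stood apart: 4308 of 15837 genes (27.2%) were at least 2-fold apart between them, against 736 of 15030 (4.90%) between the day 0 samples. In bulk RNA, fewer cells of a type and less RNA per cell cannot be told apart.

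Across the 11 samples the 10 genes fell into 2 sets. Atp2a2, Slc6a8, Gamt and Ckb were detected throughout, at 0.1 FPKM or more in every sample. Ckmt1, Gatm and Atp2a1 reached 0.1 FPKM in 1 sample each, Ryr2 in no sample, and Ckm and Ckmt2 were listed at 0 in all 11. Of the 10 genes the cells thus expressed the SERCA2 pump, the creatine transporter, the methyltransferase of creatine synthesis and, at a low level, the brain-type kinase.

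**Figure D1:**
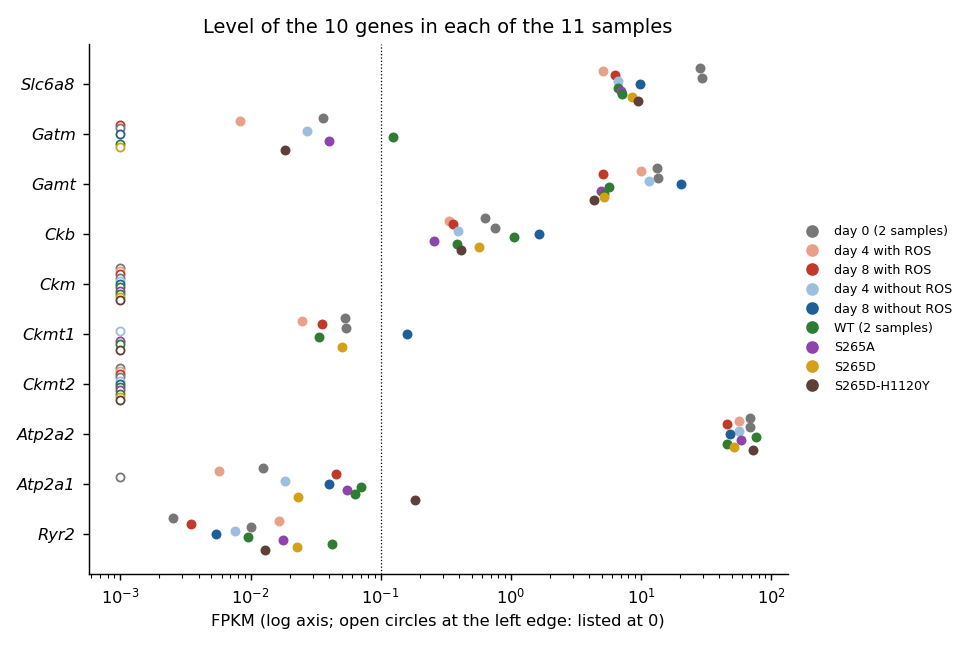
FPKM of the 10 genes in each of the 11 samples, on a log axis, with 1 point per sample coloured by group and open circles at the left edge for a value of 0; the dotted line is the minimum of 0.1 FPKM. Atp2a2 lies at 45.6 to 76.1 FPKM in every sample, Slc6a8, Gamt and Ckb lie at lower levels, and Ckm and Ckmt2 have only open circles.

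Slc6a8, the plasma membrane transporter that brings creatine into cells, was the most highly expressed of the creatine genes before differentiation. It lies on mm9 chromosome X, 70918472 to 70927839, on the plus strand. Its level was 28.3 and 29.5 FPKM in the 2 day 0 samples. With ROS it was 5.11 FPKM at day 4 and 6.35 FPKM at day 8. Without ROS it was 6.65 FPKM at day 4 and 9.73 FPKM at day 8. The 4 differentiated samples lay well below both day 0 samples, whether or not ROS was given.

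On the log2(FPKM + 0.1) scale Slc6a8 fell in all 4 comparisons with day 0 (limma, adjusted p between 0.0164 and 0.0275). The log2 difference was -2.48 (SE 0.07) at day 4 with ROS, which is a level 5.65 times lower. At day 8 with ROS it was -2.17, at day 4 without ROS -2.10 and at day 8 without ROS -1.56, each with the same SE. Only the pair of day 0 samples gave the spread in this fit (1 residual degree of freedom), and with either of them left out, in a fit of all 11 samples that takes the lone day 0 sample to vary like the WT pair, no gene was called in any of these 4 comparisons. The log2 difference of Slc6a8 without one or the other stayed between -2.51 and -1.53, and in the fit of all 11 samples with none left out its calls without ROS just missed the threshold (adjusted p = 0.0507 at day 4 and 0.0582 at day 8). Such calls were common in the main test: 34.7% of 16400 genes passed at day 4 with ROS, 47.2% at day 8 with ROS, 29.1% at day 4 without ROS and 34.7% at day 8 without ROS.

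The difference between the arms was small for the transporter. At day 8 the level with ROS was 0.653 times that without (log2 difference -0.61, SE 0.08, limma adjusted p = 0.118), and at day 4 it was 0.769 times (-0.37, adjusted p = 0.438). All sense transcripts listed for Slc6a8 gave nearly the same level, from 0.909 to 1.03 times that of the row used.

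Gatm, the mitochondrial amidinotransferase that makes guanidinoacetate in the first step of creatine synthesis, was close to the limit of detection. It was listed at 0 in 5 of the 11 samples and exceeded the level that 3 read pairs would give in 1 sample, WT A, at 0.125 FPKM, where about 5.46 read pairs covered it. The level that 3 read pairs would give was 0.0481 to 0.0820 FPKM over the samples, a limit of counting only. No difference in Gatm was detectable at this depth.

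Gamt, the methyltransferase that turns guanidinoacetate into creatine, was expressed throughout and had the widest separation between the arms with and without ROS among the expressed members other than Ckb. It lies on mm9 chromosome 10, 79720896 to 79723713, on the minus strand. In the day 0 samples its level was 13.3 and 13.4 FPKM. With ROS it was 10.1 FPKM at day 4 and 5.06 FPKM at day 8. Without ROS it was 11.4 FPKM at day 4 and 20.1 FPKM at day 8. By day 8 the arms therefore lay on opposite sides of both day 0 values, below them with ROS and above them without.

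Against day 0, Gamt fell at day 8 with ROS by 1.39 on the log2 scale (SE 0.06, limma adjusted p = 0.0174). It rose at day 8 without ROS by 0.59 (SE 0.06, adjusted p = 0.0411), a level 1.51 times higher. That rise no longer passed under median-of-ratios scaling of the samples (0.53, adjusted p = 0.0618) or in the fit of all 11 samples (adjusted p = 0.176). With day and ROS as additive terms in the fit neither day 8 call passed (adjusted p = 0.173 with ROS and 0.831 without). That fit sets 1 ROS difference for both days, whereas the differences of Gamt were -0.18 at day 4 and -1.97 at day 8. It therefore cannot test the day 8 levels on their own. At day 4 the log2 differences were -0.40 with ROS (adjusted p = 0.0584) and -0.23 without ROS (adjusted p = 0.123), and neither passed.

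Compared directly at day 8, Gamt was 3.98 times lower with ROS than without (log2 difference -1.97, SE 0.07). The limma adjusted p was 0.0972, so it did not pass. That value was the smallest among the 16400 genes, but other genes shared it, Ucp1, Cidea and Ak1 among them. By unadjusted limma p Gamt (0.00139) was not the first, since Elovl3 had 0.000558. There was 1 sample in each arm and the spread again came from the day 0 pair. In this comparison 0 genes passed, with 5011 at an unadjusted p below 0.05, and with genes below 1 FPKM left out 895 of 13159 genes passed, Gamt (adjusted p = 0.0466) and Ckb (0.0470) among them, although Ckb reached 1 FPKM in the time course only at day 8 without ROS and so entered that fit only through the arm in which it was high. Over the alternatives tried, the adjusted p of Gamt ran from 0.0466 to 0.566. At day 4 Gamt was 0.883 times the level without ROS (log2 difference -0.18, adjusted p = 0.518). The change in the ROS difference from day 4 to day 8 was -1.79 (SE 0.10, adjusted p = 0.256), which did not pass.

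Markers of other cell states differed between the same day 8 samples. The adipocyte markers summed to 36644 FPKM with ROS and 10295 FPKM without, of which Fabp4 made up 31402 and 7631 FPKM. Pparg (140 and 231 FPKM) and Retn (238 and 278 FPKM) were lower with ROS, and the other adipocyte markers were higher. The 6 beige markers (Ucp1, Cidea, Cox8b, Elovl3, Dio2 and Ppargc1a) summed to 225 FPKM with ROS and 51.0 FPKM without. The 5 preadipocyte markers (Dlk1, Pdgfra, Ly6a, Cd34 and Thy1) summed to 131 FPKM with ROS and 555 FPKM without, against 484 and 549 FPKM at day 0, and Ly6a made up 495 FPKM of the sum without ROS. Their part in the Gamt difference was not tested.

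The promoter of Gamt is shown because this gene had the widest ROS difference among members above 1 FPKM in all samples. The sequence covers the 250 bases before the RefSeq start site (GRCm38.p6, chr10:80261013-80261262, minus strand, 5′ to 3′), with capitals on matches to the GC box GGGCGG on either strand.
Gamt: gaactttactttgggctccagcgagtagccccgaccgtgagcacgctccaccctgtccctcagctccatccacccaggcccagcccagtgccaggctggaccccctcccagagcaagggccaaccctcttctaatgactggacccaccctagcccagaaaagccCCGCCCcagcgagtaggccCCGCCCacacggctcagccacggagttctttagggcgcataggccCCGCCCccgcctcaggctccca
The stretch shown holds 3 GC boxes, and 1 more lies within the 50 bases after the start. A GC box was present in 35.7% of the 32851 promoter windows of 300 bases. The other motifs searched on both strands were the nuclear receptor core AGGTCA, the CCAAT box, the TATA box (TATAAA), the E-box (CACGTG) and the cAMP response element (TGACGTCA). None of these motifs had a full match in the Gamt window. Its GC content was 66%, against a median of 52.7% over all windows.

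Ckb, the brain-type cytosolic creatine kinase, was the only kinase of the group detected in every sample, and its level was low. It lies on mm9 chromosome 12, 112907566 to 112910549, on the minus strand. At day 0 its level was 0.634 and 0.754 FPKM. With ROS it was 0.333 FPKM at day 4 and 0.358 FPKM at day 8. Without ROS it was 0.391 FPKM at day 4 and 1.64 FPKM at day 8. The sample at day 8 without ROS was thus the highest of the time course, and the other 3 differentiated samples lay below both day 0 samples.

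The values of Ckb rest on few reads, between 1793 and 10546 mapped bases per sample, or about 8.96 to 52.7 read pairs. At day 8 without ROS it rose by 1.14 on the log2 scale (SE 0.15, limma adjusted p = 0.0495), a level 2.36 times higher. This call was at the threshold and was lost under 9 of the 11 alternatives tried, with adjusted p from 0.0196 to 0.722 over them. The differences with ROS were -0.87 at day 4 (adjusted p = 0.0660) and -0.79 at day 8 (adjusted p = 0.0633), and that at day 4 without ROS was -0.69 (adjusted p = 0.0908), so none of these passed. At day 8 Ckb was 4.59 times lower with ROS than without (log2 difference -1.93, SE 0.17, adjusted p = 0.0987), which did not pass with 1 sample in each arm. The marker sums given for Gamt moved with this difference as well, and their part in it was not tested.

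The promoter of Ckb is shown for comparison with that of Gamt, since both genes had lower levels with ROS than without at day 8. It covers the 250 bases before the RefSeq start (GRCm38.p6, chr12:111672339-111672588, minus strand, 5′ to 3′), with capitals on CCAAT and TATAAA.
Ckb: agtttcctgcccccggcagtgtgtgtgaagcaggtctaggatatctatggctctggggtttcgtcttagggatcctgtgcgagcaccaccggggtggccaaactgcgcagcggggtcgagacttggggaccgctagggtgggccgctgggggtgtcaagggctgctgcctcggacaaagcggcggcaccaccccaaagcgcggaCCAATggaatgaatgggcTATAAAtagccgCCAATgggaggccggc
The window holds 2 CCAAT boxes, a motif present in 37.4% of promoter windows, and 1 TATAAA, present in 13.6%. It had no GC box, and none of the other motifs searched. The 2 promoters thus shared none of the motifs searched, and promoter entries were found for 8 of the 10 genes.

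The other creatine kinases were at or near 0. Ckm, the muscle-type kinase, and Ckmt2, the mitochondrial kinase of striated muscle, had no mapped base in any of the 11 samples, so that a level of up to 0.0801 to 0.137 FPKM for Ckm and 0.0763 to 0.130 FPKM for Ckmt2 was possible at the 3 read pairs that a count of 0 allows. Ckmt1, the ubiquitous mitochondrial kinase, was 0.0536 and 0.0539 FPKM at day 0, 0.0249 FPKM at day 4 with ROS and 0.0355 FPKM at day 8 with ROS. Without ROS it was listed at 0 at day 4 and at 0.159 FPKM at day 8, which was the one sample of the 11 above 3 read pairs, with about 5.47 read pairs. Limma called Ckmt1 higher at day 8 without ROS (0.75, adjusted p = 0.0339) and lower at day 4 without ROS (-0.62, adjusted p = 0.0422), but the latter compares values that are both under 3 read pairs. In the former, Ckmt1 entered both limma and the 2-fold counts only through the sample in which it was high, so that its call is no support for a difference.

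**Figure D2:**
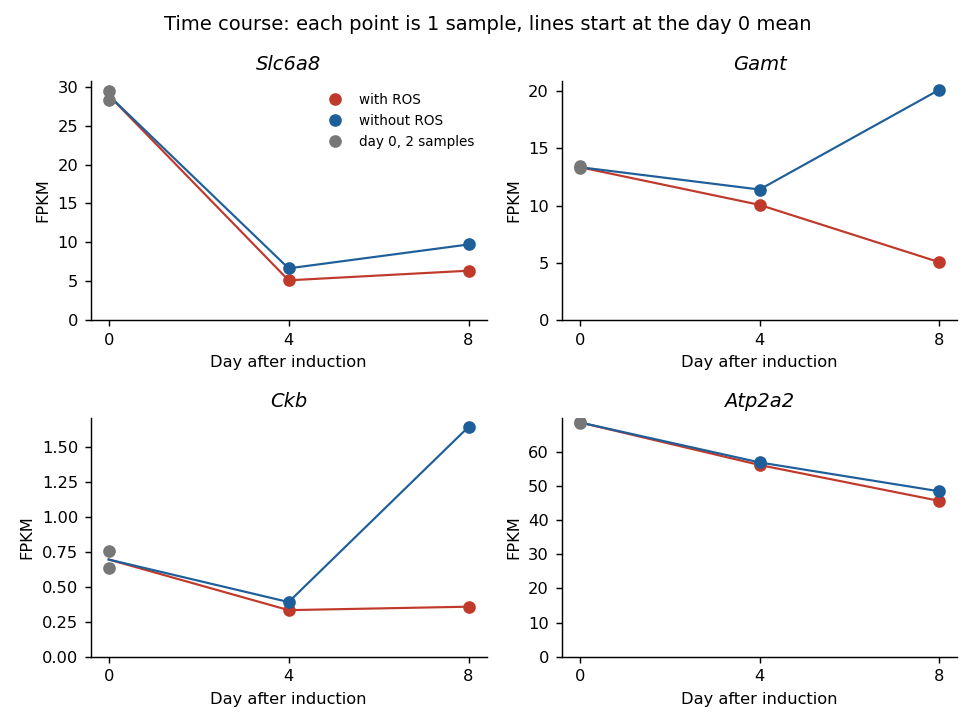
FPKM of Slc6a8, Gamt, Ckb and Atp2a2 against the day after induction, with ROS in red and without ROS in blue; each point is 1 sample, grey points are the 2 day 0 samples and lines start at their mean. Slc6a8 is low in both arms from day 4, Gamt and Ckb part at day 8 (5.06 against 20.1 FPKM and 0.358 against 1.64 FPKM), and the Atp2a2 lines stay together.

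Atp2a2, which encodes the SERCA2 pump present in most cell types, was the most highly expressed of the 10 genes in every sample. It lies on mm9 chromosome 5, 122903522 to 122952234, on the minus strand. Its level was 68.4 and 68.8 FPKM at day 0. With ROS it was 56.2 FPKM at day 4 and 45.6 FPKM at day 8. Without ROS it was 56.9 FPKM at day 4 and 48.4 FPKM at day 8. Every differentiated sample of the time course lay below both day 0 samples, and the day 8 samples below those of day 4.

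By limma, Atp2a2 fell at day 8 with ROS by 0.59 on the log2 scale (SE 0.06, adjusted p = 0.0321) and at day 8 without ROS by 0.50 (SE 0.06, adjusted p = 0.0467). Under median-of-ratios scaling neither passed, with adjusted p of 0.0620 and 0.0560, nor in the fit of all 11 samples (adjusted p = 0.349 and 0.462). At day 4 the differences of -0.29 with ROS (adjusted p = 0.0861) and -0.27 without ROS (adjusted p = 0.0975) did not pass. The arms were 0.987 times apart at day 4 and 0.942 times at day 8, with log2 differences of -0.02 (SE 0.07, adjusted p = 0.930) and -0.09 (SE 0.07, adjusted p = 0.498), whose sign turns under the other scaling (0.04 and 0.11). The second Atp2a2 transcript listed was 0.865 to 0.912 times the level of the first, so the deposited values separate the isoforms only weakly.

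Atp2a1, which encodes the fast-muscle pump SERCA1, and Ryr2, the heart-type ryanodine receptor, were near the limit of detection. Atp2a1 was at 0 to 0.0703 FPKM in 10 samples and at 0.183 FPKM in S265D-H1120Y, where about 14.4 read pairs covered it. Between 21.5% and 100% of the bases over Atp2a1 came from the antisense strand. Ryr2 was at 0.00252 to 0.0420 FPKM, with its highest value in WT B, and exceeded the level of 3 read pairs in 6 samples. Atp2a2 made up at least 99.7% of the summed FPKM of the 3 calcium genes in each sample.

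In counts, 2 of the 4 members tested at day 4 with ROS were at least 2-fold below day 0 (Ckb and Slc6a8), where 17.7% of all genes were lower and 35.7% were 2-fold apart either way. At day 8 with ROS 2 of 4 were (Gamt and Slc6a8), where 24.3% of all genes were lower and 44.6% 2-fold apart. Without ROS 1 of 4 was lower at day 4 (Slc6a8), where 14.6% of all genes were lower and 33.3% 2-fold apart. At day 8 without ROS 1 of 5 was lower (Slc6a8) and 2 were higher (Ckb and Ckmt1, the latter tested only through its high sample), where 13.6% of all genes were lower, 21.5% higher and 35.1% either of these. The median log2 difference of the members tested was -0.64, -1.09, -0.48 and 0.59 in these comparisons, against -0.04, -0.16, 0.04 and 0.06 over all genes tested. These 4 comparisons share the day 0 samples, and 4 or 5 members are too few to set apart from those percentages.

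Between the arms, 0 of 4 members were 2-fold apart at day 4, where 6.70% of all genes were. At day 8, 3 of 5 were lower with ROS (Gamt, Ckb and Ckmt1), where 15.2% of all genes were lower and 19.2% 2-fold apart. Ckmt1 was among them only through the sample without ROS, and apart from it 2 of 4 were lower. The median over all genes was itself below 0 there, at -0.21, and median-of-ratios scaling moved the median in the limma test from -0.20 to -0.02. With that scaling 853 genes were 2-fold higher and 1838 lower, against 622 and 2366 as deposited. The Gamt and Ckb differences of -1.97 and -1.93 lay outside the range from the 5th to the 95th percentile of all genes, -1.42 to 0.75.

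**Figure D3:**
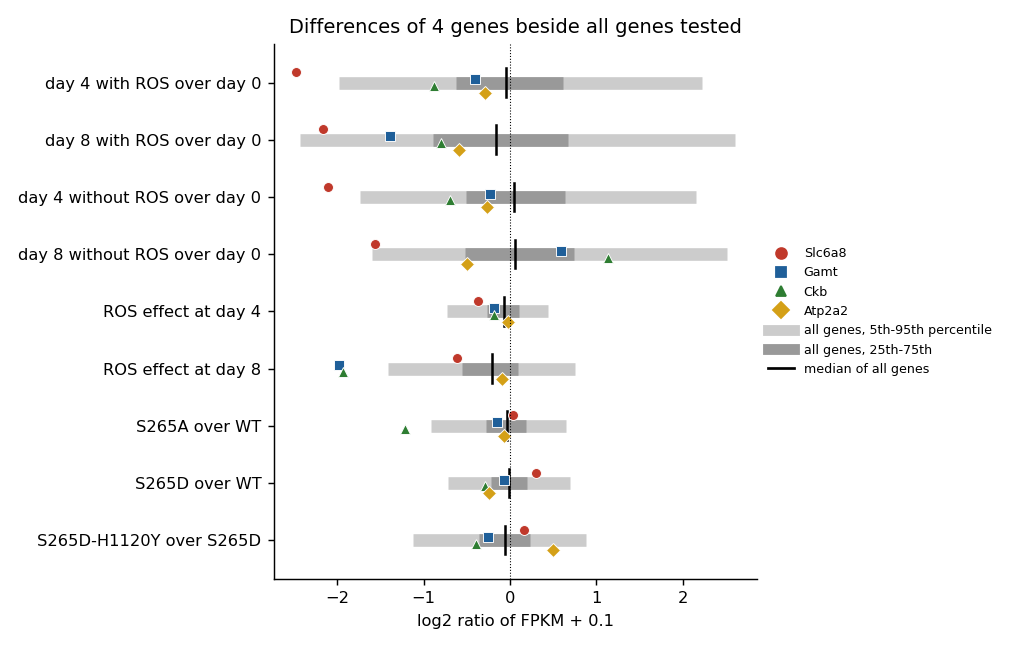
The log2 ratio of FPKM + 0.1 for Slc6a8, Gamt, Ckb and Atp2a2 in each of the 9 comparisons, over bars for the 5th to 95th (light) and 25th to 75th percentile (dark) of all genes tested and a line at their median. Slc6a8 lies beyond the light bar at day 4 over day 0, with and without ROS, Gamt and Ckb lie beyond it for the ROS effect at day 8, and Ckb also lies beyond it for S265A over WT.

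In the transduced lines the knocked-down gene was examined first. Mouse Kdm3a was at 20.4 FPKM in WT A, 17.9 FPKM in WT B, 13.0 FPKM in S265A, 23.0 FPKM in S265D and 28.5 FPKM in S265D-H1120Y, against 21.1 FPKM in the cells not transduced at day 8 with ROS. In 2 of the 5 libraries the level was above that of the cells not transduced, and reads of the human JMJD1A construct that map to the mouse gene cannot be told apart from its own. The lines are therefore given as the libraries labelled with each construct. The WT, S265A and S265D libraries address phosphorylation of JMJD1A at S265, and S265D-H1120Y its demethylase activity.

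Gamt was nearly level across the transduced libraries. Its values were 5.66 FPKM in the library labelled WT A, 5.21 FPKM in WT B, 4.89 FPKM in S265A, 5.19 FPKM in S265D and 4.35 FPKM in S265D-H1120Y. All 5 were close to the 5.06 FPKM of cells not transduced at day 8 with ROS, and all were below the time course samples of day 0 and day 4. The S265A library was 0.900 times the WT mean, S265D 0.954 times, and S265D-H1120Y 0.839 times S265D.

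Slc6a8 was also nearly level. It was 6.65 FPKM in WT A, 7.10 FPKM in WT B, 7.07 FPKM in S265A, 8.52 FPKM in S265D and 9.55 FPKM in S265D-H1120Y. The S265D and S265D-H1120Y libraries lay above both WT libraries, and the S265A library lay between them. The log2 difference of S265D from WT was 0.31 (SE 0.39).

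For Ckb and Atp2a2 the WT libraries themselves were apart. Ckb was 1.05 FPKM in WT A and 0.385 FPKM in WT B (0.720 ± 0.473, SD, n = 2), 0.255 FPKM in S265A, 0.570 FPKM in S265D and 0.411 FPKM in S265D-H1120Y. The S265A library was 2.83 times below the WT mean and lay below both WT libraries, but with WT A left out no member was 2-fold apart in S265A. Atp2a2 was 76.1 FPKM in WT A and 46.1 FPKM in WT B (61.1 ± 21.3, SD, n = 2), 58.4 FPKM in S265A, 51.5 FPKM in S265D and 72.7 FPKM in S265D-H1120Y. The S265A and S265D values of Atp2a2 lay between the WT values.

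No member passed in any comparison of the constructs: the limma adjusted p was 1 for each of them that was tested. No gene at all passed for S265A over WT, S265D over WT or S265D-H1120Y over S265D, with 107, 99 and 187 of 16402 genes at an unadjusted p below 0.05. By the 2-fold rule 1 of 4 members was lower in S265A (Ckb), where 6.40% of all genes were lower and 9.89% 2-fold apart. For S265D 0 of 4 members were 2-fold apart from WT, where 8.67% of all genes were. For S265D-H1120Y 1 of 5 was higher than S265D (Atp2a1), where 5.62% of all genes were higher and 14.3% 2-fold apart, and this member entered only through the sample in which it was high. WT A and WT B also differed in the beige marker sum (199 and 26.9 FPKM). Their preadipocyte marker sums were 136 and 552 FPKM, their adipocyte sums 15914 and 29908 FPKM and their skeletal muscle sums 9.60 and 32.2 FPKM. The part of these differences in the values of Ckb and Atp2a2 was not tested.

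**Figure D4:**
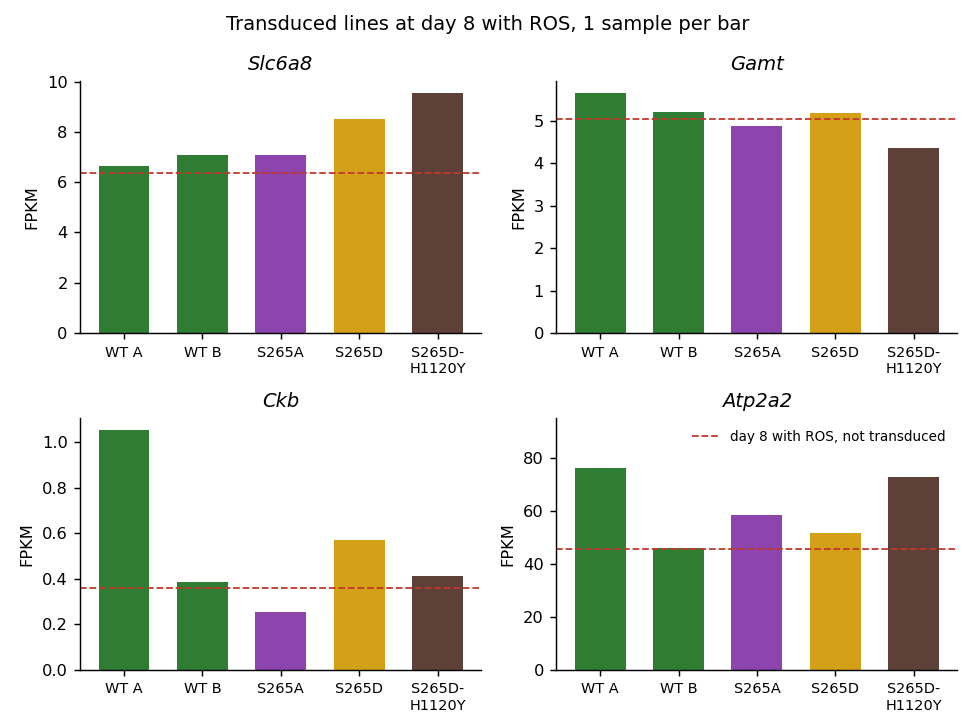
FPKM of Slc6a8, Gamt, Ckb and Atp2a2 in the 5 transduced libraries, 1 library per bar, with a dashed line at the level in cells not transduced at day 8 with ROS. The WT A and WT B bars differ for Ckb (1.05 and 0.385 FPKM) and Atp2a2 (76.1 and 46.1 FPKM), and the Gamt bars lie between 4.35 and 5.66 FPKM.

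Other genes of the creatine cycle and of phosphate transfer were followed as a list of 7, all above 1 FPKM in some sample. Of these, 3 rose and 2 fell in each of the 4 comparisons with day 0, both by the 2-fold rule and by limma. Over all genes 33.3% to 44.6% were 2-fold apart and 29.1% to 47.2% were called by limma in these comparisons. Alpl, the tissue-nonspecific alkaline phosphatase that can hydrolyse phosphocreatine, had a day 0 mean of 2.13 FPKM. It was 20.4 FPKM at day 4 and 35.1 FPKM at day 8 with ROS, and 16.4 and 33.9 FPKM without. It was thus 16.5 times higher at day 8 with ROS (limma adjusted p = 0.0164) and 15.9 times higher without (adjusted p = 0.0266), with little difference between the arms (1.03 times, adjusted p = 0.836).

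Phospho1, a phosphatase of phosphocholine and phosphoethanolamine, had a day 0 mean of 10.8 FPKM and reached 122 FPKM at day 8 with ROS and 58.3 FPKM without. The arms were 2.09 times apart (limma adjusted p = 0.0990), which did not pass. Slc25a5 (the ADP/ATP carrier ANT2) also rose in all 4 comparisons, from 231 to 778 FPKM at day 8 with ROS. Ak1, the cytosolic adenylate kinase, fell from a day 0 mean of 84.0 FPKM to 8.46 FPKM at day 8 with ROS and 31.7 FPKM without. Its ROS ratio at day 8 was 0.267 (adjusted p = 0.0972), close to that of Gamt, and did not pass. Ak4, a mitochondrial matrix enzyme, fell from 7.86 to 3.48 and 3.17 FPKM. Slc25a4 (ANT1) and Vdac1 (an outer membrane channel) did not pass. In the transduced libraries 1 of the 7 was 2-fold apart from WT, Ak4 in S265D (28.5 against a WT mean of 13.0 FPKM, adjusted p = 1).

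The calcium list held 25 genes, 14 of them above 1 FPKM in some sample and 8 below 0.1 FPKM in all. At day 8 with ROS 5 of 17 rose and 7 fell by limma, and without ROS 3 rose and 4 fell. Over all genes 47.2% were called with ROS and 34.7% without. Atp2a3, which encodes the SERCA3 pump, had a day 0 mean of 0.318 FPKM. It was 15.5 FPKM at day 4 and 35.9 FPKM at day 8 with ROS, and 9.81 and 26.6 FPKM without. The level at day 8 was 113 times that of day 0 with ROS (adjusted p = 0.0164) and 83.6 times without (adjusted p = 0.0266), and the arms did not pass a test of their difference (1.35 times, adjusted p = 0.318). At day 8 this pump thus rose, while Atp2a2 was 0.665 times its day 0 level with ROS and 0.706 times without. The Atp2a2 calls were lost under median-of-ratios scaling and in the fit of all 11 samples. In the transduced libraries Atp2a3 ranged from 26.0 FPKM in WT A to 69.5 FPKM in S265D-H1120Y. Atp2a2 was high in both of these libraries, at 76.1 FPKM in WT A and 72.7 FPKM in S265D-H1120Y.

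Of the release channels, Itpr1 rose at day 8 with ROS from 4.85 to 10.2 FPKM and Itpr3 fell from 20.7 FPKM to 1.71 FPKM with ROS and 4.43 FPKM without. These genes encode inositol trisphosphate receptors. The ryanodine receptor genes Ryr1 and Ryr3 were below 0.1 FPKM in every sample, as was Ryr2. Sln and Pln, which encode small inhibitors of SERCA pumps, were also below 0.1 FPKM throughout. Stim1, the calcium sensor of the reticulum, rose from 5.99 FPKM to 19.1 FPKM at day 8 with ROS and 22.7 FPKM without.

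Among the genes that fell at day 8 with ROS, Calr, a calcium-binding chaperone, went from 713 to 292 FPKM (limma adjusted p = 0.0247), while it stood at 701 FPKM without ROS. Its ROS ratio at day 8 was 0.417 (adjusted p = 0.0994), so the difference between the arms did not pass. Casq2, a calcium-storage protein of heart muscle, was at 1.13 FPKM at day 0, was listed at 0 at day 8 with ROS and was at 0.0185 FPKM at day 8 without. The plasma membrane calcium pump gene Atp2b1 went from 13.6 FPKM to 2.53 FPKM with ROS (limma adjusted p = 0.0439) and 4.62 FPKM without (adjusted p = 0.0859). Its day 0 samples were themselves apart at 16.0 and 11.2 FPKM. Fkbp1b, which encodes a ryanodine receptor-binding immunophilin, fell from 1.44 to 0.359 FPKM with ROS and 0.653 FPKM without.

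**Figure D5:**
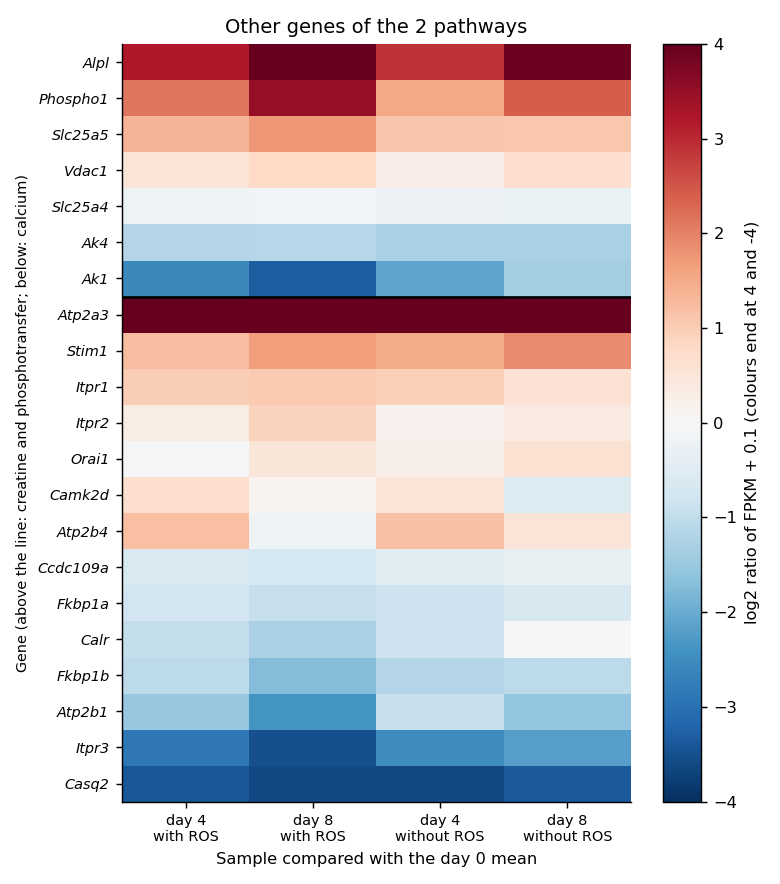
The log2 ratio of FPKM + 0.1 to the day 0 mean for the 21 other pathway genes above 1 FPKM, in the 4 differentiated time course samples, in red where higher and blue where lower; colours end at 4 and -4. Above the line are the 7 creatine and phosphate transfer genes, below it 14 calcium genes, and Alpl and Atp2a3 are the deepest red in each.

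Finally, the genes whose pattern over the 11 samples was most like that of each member above 1 FPKM were listed, by the root-mean-square (RMS) difference of log2(FPKM + 0.1) after each gene was centred on its mean, among 13615 genes. For Gamt the nearest were Limd2 (RMS difference 0.184), Nme4 (0.218) and Ephb4 (0.264), against a spread of 0.728 of Gamt itself. Limd2 was at 7.08 FPKM at day 8 with ROS and 20.7 FPKM without. For Slc6a8 the nearest symbol was CRT (0.106), which lies inside Slc6a8 and shares its reads, followed by Gas2 (0.179) and Dusp7 (0.187). For Ckb they were Dusp6 (0.331), Steap3 (0.342) and Prdx6 (0.377), and for Atp2a2 Armc8, Usp7 and Scaf4, at 0.134 each. The samples share time point and treatment, so these values describe likeness only.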

How the data were processed

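RNA-seq of 11 im-scWAT samples was used, 6 of a time course and 5 of transduced cells. According to the labels and methods, TruSeq libraries were sequenced on an Illumina HiSeq, and the authors aligned reads with BWA to UCSC transcripts and the mouse genome mm9, realigned them with an in-house tool and computed FPKM per transcript and strand; aligner versions were not given in the sources used here. The deposited FPKM values were used as they stand. The deposited coverage per transcript (mapped bases, a signal and not a read count) gave depth: at 200 bases per read pair, 3 pairs (600 bases) set the lowest level treated as above 0, a limit of counting error only, and PCR duplicates could not be removed. One sense row per symbol, flagged as representative by the authors, was kept. The 10 genes and the other gene lists were chosen with earlier results of these data known, and 2 genes of the other lists are not reported here.

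Each experiment was fitted alone with limma 3.58.1 (R 4.3.3) on log2(FPKM + 0.1), keeping genes that reached an FPKM of 0.1 in any sample, with Benjamini-Hochberg adjustment at 0.05. The pseudocount understates changes of low genes. The spread came from the 2 day 0 or the 2 WT samples (1 residual degree of freedom), and the script was tested on simulated data. Counts of 2-fold differences used FPKM ratios without a pseudocount for genes with at least 0.1 FPKM in a compared group, with day 0 and WT as means. Pairs of samples were compared with sampling noise before averaging. The squared log difference divided by the sampling variance had a median over well-covered transcripts of 2.41 for day 0 and 25.0 for WT. Both pairs were therefore kept as 2 samples. Named were all 10 members, other pathway genes of at least 1 FPKM that were 2-fold apart in the comparison described (Slc25a4, Vdac1, Sln, Pln, Ryr1 and Ryr3 are named beyond this rule), Kdm3a, and the 3 nearest genes by pattern. Alternatives were other pseudocounts, minimum levels, transcripts, scaling, fits and left-out samples. Promoter sequences come from RefSeq (GRCm38.p6), whose coordinates differ from those of mm9. Python 3.11.15 and matplotlib 3.10.9 were used for tables and figures.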

Additional observations from a re-analysis of the deposited data

Results flagged for a closer look

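The antisense rows of the genes were not used in the comparisons. They were set against the day 0 samples for the time course and WT libraries and against the WT libraries for the mutants. Apart from Ckb, 2 of them were more than 2 times as high. Over Ckb the antisense level was 0.0132 FPKM at day 8 with ROS and 0.0154 FPKM without, against 0 in both day 0 samples. Each of these Ckb values rests on 99 mapped bases. Over Atp2a1 the antisense level in WT B was 0.149 FPKM (1882 mapped bases), against at most 0.0682 FPKM at day 0, which belongs to the other experiment, and 0.0706 FPKM in WT A. Over Atp2a2 it was 0.311 FPKM in S265D-H1120Y (6146 mapped bases), against at most 0.131 FPKM in the WT libraries, while the day 0 samples were at 0.291 and 0.271 FPKM, close to that level. The Atp2a2 antisense signal was at most 0.425% of all bases over that gene.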

How the results depend on the processing

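The calls in the time course rest on the 2 day 0 samples. In 1 fit of all 11 samples, the genes called against day 0 numbered 442 at day 4 with ROS, 1723 at day 8 with ROS, 251 at day 4 without ROS and 407 at day 8 without ROS, against 5690, 7747, 4778 and 5694. With day 0 replicate 1 or 2 left out, 0 genes and 0 members were called in each of the 4 comparisons, with 1324 to 2361 genes at an unadjusted p below 0.05. The ROS effect at day 8 gave 0 calls except with a minimum of 1 FPKM, where 895 genes and 2 members passed, 1 of them (Ckb) entering only through its high sample without ROS. Members called at day 4 with ROS numbered 1, and 2 with a pseudocount of 1 or 0.01, a minimum of 1 FPKM, no minimum or a trend. Over all genes 6092 and 4909 of 16400 were called with these 2 pseudocounts, in that order, and 6049 of 16400 with a trend. With a minimum of 1 FPKM 6568 of 13159 genes were called, and with no minimum 4567 of 19628. Members called at day 4 without ROS numbered 2, and 1 with a pseudocount of 1, under median-of-ratios scaling or in the additive fit, and 0 in the fit of all samples. Over all genes 5425 of 16400 were called with that pseudocount, 4430 of 16330 under scaling and 5785 of 16400 in the additive fit. At day 8 without ROS members called numbered 5, and 2 with a pseudocount of 0.01, under scaling or in the additive fit, and 0 in the fit of all samples. Over all genes 4407 of 16400 were called with that pseudocount, 5370 of 16330 under scaling and 7043 of 16400 in the additive fit.

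Members 2-fold apart changed with the minimum level, and those added without one were below 0.1 FPKM in both groups compared. With none, members numbered 5, 4, 3 and 5 against day 0 in the order above, 4 for ROS at day 4, 2 for S265A, 3 for S265D and 3 for S265D-H1120Y. Over all genes 3751 were then 2-fold higher and 4303 lower of 18826 at day 4 with ROS. These counts were 4085 and 5402 of 18870 at day 8 with ROS and 3769 and 3843 of 18629 at day 4 without. They were 4606 and 3443 of 18952 at day 8 without ROS and 1395 and 1493 of 17952 for ROS at day 4. For S265A they were 1456 and 2504 of 19061, for S265D 1580 and 2141 of 19088, and for S265D-H1120Y 1903 and 2493 of 18700. With a minimum of 1 FPKM members numbered 1 at day 4 with ROS and 0 for S265A and S265D-H1120Y. Over all genes 1927 were then higher and 1864 lower of 12641 at day 4 with ROS. For S265A these counts were 145 and 357 of 12564, and for S265D-H1120Y 323 and 634 of 12645. With a pseudocount of 1, members numbered 1 at day 4 with ROS, 1 at day 8 without ROS, 1 for ROS at day 8, and 0 for S265A and S265D-H1120Y. Over all genes 1519 were then higher and 1401 lower of 15577 at day 4 with ROS. These counts were 1769 and 1065 of 15837 at day 8 without ROS and 219 and 632 of 15536 for ROS at day 8. For S265A they were 61 and 149 of 15681, and for S265D-H1120Y 186 and 318 of 15760. Leaving out a day 0 sample gave 1 to 2 members at day 4 with ROS. Over all genes 2936 were then higher and 2722 lower of 15552 without replicate 1, and 2791 and 2850 of 15609 without replicate 2. Leaving out a WT sample gave 0 to 2 members for S265A and 0 to 1 for S265D. Over all genes, without WT A 797 were higher and 1248 lower of 15706 for S265A, and 830 and 688 of 15734 for S265D. Without WT B these counts were 1680 and 1304 of 15669 for S265A and 2066 and 1217 of 15788 for S265D.

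The sign turned in 11 cases, none of them called. Gamt at day 4 without ROS was 0.22 in the additive fit, where Ckmt1 was 0.13 at day 8 with ROS and -0.31 for ROS at day 4. Under scaling Atp2a2 was 0.041 for ROS at day 4, 0.11 at day 8 and 0.065 for their difference. With a pseudocount of 0.01 Gatm was 0.44 in S265A. With WT replicate A or B left out, Slc6a8 in S265A ran from -0.0049 to 0.087 and Atp2a2 from -0.38 to 0.34, and in S265D Ckb ran from -0.78 to 0.47 and Atp2a2 from -0.56 to 0.16, each turning without replicate A. The additive fit sets 1 ROS difference for both days, and without replicate A the WT level is that of WT B alone. The cause was not tested. Of the other members' values under the alternatives, 434 stayed on their side of the threshold, 48 lost and 10 gained a call. No paired analysis was possible because the groups compared share at most 1 replicate number, each group but day 0 and WT having 1 sample. At 3.10 to 5.29 Gb per sample, depth limits Ckm, Ckmt1, Ckmt2, Gatm, Atp2a1 and Ryr2.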
